A study of Mus musculus with 18 samples.

Results

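The genes described here encode the proteins of the 2 ribosomes of the mouse liver cell, the cytosolic ribosome and the mitochondrial ribosome. Members were chosen by gene symbol and were selected on 1 measured value, a sum of more than 100 reads over all 18 mice. Of 161 symbols that match the pattern, 156 passed and 5 did not, in a table of 35441 genes of which 14535 were tested. The 156 members were 78 cytosolic proteins (46 of the large and 32 of the small subunit) and 78 mitochondrial proteins (49 of the large and 29 of the small subunit). The 5 symbols outside the minimum were Rpl10l with 0 reads, Rpl32l with 9, Rpl6l with 21.2, Rpl3l with 24 and Rpl39l with 25, while the member nearest to it, Mrpl23, had 1972 reads.

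RNA was sequenced from livers of 18 mice, 3 in each of 6 groups, and the study states that male Lipa-/- mice were used. WT mice were untreated, and Lipa-/- mice lacked exon 4 of the gene for lysosomal acid lipase in every tissue, on a C57/BL6N background, after deletion with Cre driven by the CMV promoter. Treated Lipa-/- mice carried the same deletion and had received rAAV8.hAAT.LIPA, a vector that expresses human LIPA from the hAAT promoter and therefore chiefly in hepatocytes, by tail vein at 10 to 12 weeks of age. Livers were taken at 12 or 34 weeks after injection, which the labels give as 3 and 8 months, and the labels do not give the dose. The study states that nearly all untreated Lipa-/- mice reached an ethical endpoint ahead of the 34-week point, so the age of the Lipa-/- mice labelled 8 months may not match that of the other groups. In the Lipa-/- group at 12 weeks, mouse 5 carries a different study code from mice 8 and 9, and the 34-week mice carry another code again, so that code and time point cannot be told apart.

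Libraries held 17527800 to 25833100 estimated reads. Murine Lipa stood at 62.2 to 133 TPM (a share of all transcripts that corrects for gene length) in WT mice and at 5.37 to 14.1 TPM in the Lipa-/- and treated mice, and the human transgene was found at 519 TPM or more in all 6 treated mice and at no more than 0.986 TPM elsewhere. WT mouse 1 at 34 weeks stood apart from its group, for the genes described here and over all genes. Over all genes, Spearman's rho of the log2 level with gene length was -0.349 in this mouse and 0.309 and 0.292 in WT mice 2 and 3. The mRNAs of the mitochondrial genome took 8.39% of its TPM, against 17.1 and 16.6% in WT mice 2 and 3. Family counts and medians, related gene lists and most named members that use WT mice at 34 weeks are also given without WT mouse 1. Whole liver was sequenced, so fewer cells of a type and less RNA per cell cannot be told apart.

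A cytosolic ribosome joins a large and a small subunit, each made of ribosomal RNA and many proteins mostly present in equal number, and it translates the mRNAs exported from the nucleus. Cytosolic ribosomal protein mRNAs are among the most abundant in a cell, and many begin with a C followed by a run of pyrimidines, the 5' terminal oligopyrimidine (TOP) start through which mTORC1 and Larp1 control their translation. The mitochondrial ribosome is built from proteins encoded in the nucleus and imported, and it translates only the few mRNAs of the mitochondrial genome, which encode subunits of the respiratory chain and ATP synthase. Liver is rich in mitochondria, and hepatocytes supply most of its RNA.

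The first bases of some members are shown to make this difference between the families visible. Each run covers 10 bases before the RefSeq start and 20 from it (build GRCm38.p6), with the first 5 transcribed bases in capitals. Rps18, Rps27 and Rpl38 hold a C followed by 4 letters that are each C or T, whereas Rps28, Mrpl1 and Mrps22 do not.
Rps18 (chr17:33955646-33955675, minus strand): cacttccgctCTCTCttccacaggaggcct
Rps27 (chr3:90213629-90213658, minus strand): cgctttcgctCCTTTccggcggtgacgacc
Rpl38 (chr11:114668570-114668599, plus strand): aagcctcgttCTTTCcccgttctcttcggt
Rps28 (chr17:33824543-33824572, minus strand): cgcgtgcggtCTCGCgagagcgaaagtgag
Mrpl1 (chr5:96210105-96210134, plus strand): atttccgtgcAGTTGaaacccgggacccac
Mrps22 (chr9:98601660-98601689, minus strand): cggaagttgcTCTATcgattccggcgcaaa

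Searched on the transcribed strand at the exact start only, this pattern stood in 13 of the 57 cytosolic members with a RefSeq entry (22.8%), in 0 of 69 mitochondrial members and in 2.94% of 10803 tested protein-coding genes. A match is a description of the annotated start. The 13 cytosolic members with the pattern had a median log2 fold change of 0.65 in Lipa-/- versus WT mice at 12 weeks and the 44 without it 0.49, and at 34 weeks these medians were 0.31 and 0.16. In treated mice at 12 weeks the order was the other way, with 1.36 and 1.49 against WT and 0.93 and 1.01 against untreated Lipa-/- mice, and at 34 weeks treated against untreated mice had -0.55 and -0.40. No order is read from these medians. The ranges of the pair of classes overlapped in Lipa-/- versus WT mice, from 0.19 to 0.95 and from -0.49 to 1.25 at 12 weeks.

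Cytosolic members were far more abundant than mitochondrial ones. The median of the mean TPM was 672 for cytosolic and 45.9 for mitochondrial members, and the highest in each subunit were Rpl13a (3316 TPM, large cytosolic), Rps18 (1744 TPM, small cytosolic), Mrpl52 (250 TPM, large mitochondrial) and Mrps21 (253 TPM, small mitochondrial). Rpl13a is a large-subunit protein that is also known from a complex regulating inflammatory mRNAs. Summed over the family, cytosolic members took 4.10, 5.11 and 3.34% of all TPM in the 3 WT mice at 12 weeks and 7.29, 8.04 and 10.4% in the 3 Lipa-/- mice. At 34 weeks the shares were 6.00, 3.40 and 3.07% in WT and 8.61, 8.74 and 7.96% in Lipa-/- mice. All Lipa-/- mice lay above all WT mice at both times, and WT mouse 1 at 34 weeks was the highest WT mouse. In treated mice the shares were 10.8, 8.82 and 6.15% at 12 weeks, which overlaps the untreated Lipa-/- mice and lies above the WT mice, and 2.75, 4.11 and 5.22% at 34 weeks, which overlaps the WT mice.

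The mitochondrial members did not show that separation on the TPM scale. Their share was 0.412, 0.459 and 0.372% in WT and 0.433, 0.476 and 0.575% in Lipa-/- mice at 12 weeks, and 0.557, 0.414 and 0.403% against 0.428, 0.410 and 0.461% at 34 weeks. The ratio of both sums, which does not depend on how libraries are scaled, was 10.0 ± 1.08 in WT and 17.3 ± 0.760 in Lipa-/- mice at 12 weeks, and 8.87 ± 1.68 and 19.6 ± 2.07 at 34 weeks (SD, n = 3 each). The lowest Lipa-/- mouse stood at 16.8 and the highest WT mouse at 11.1. In treated mice the ratio was 14.9 ± 2.45 at 12 weeks, between 12.7 and 17.6, and 9.79 ± 1.05 at 34 weeks (SD, n = 3 each), between 8.60 and 10.5. The treated mice thus lay above every WT mouse at 12 weeks, overlapping the untreated Lipa-/- mice, and inside the WT range at 34 weeks. No test was made of these sums.

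**Figure D1:**
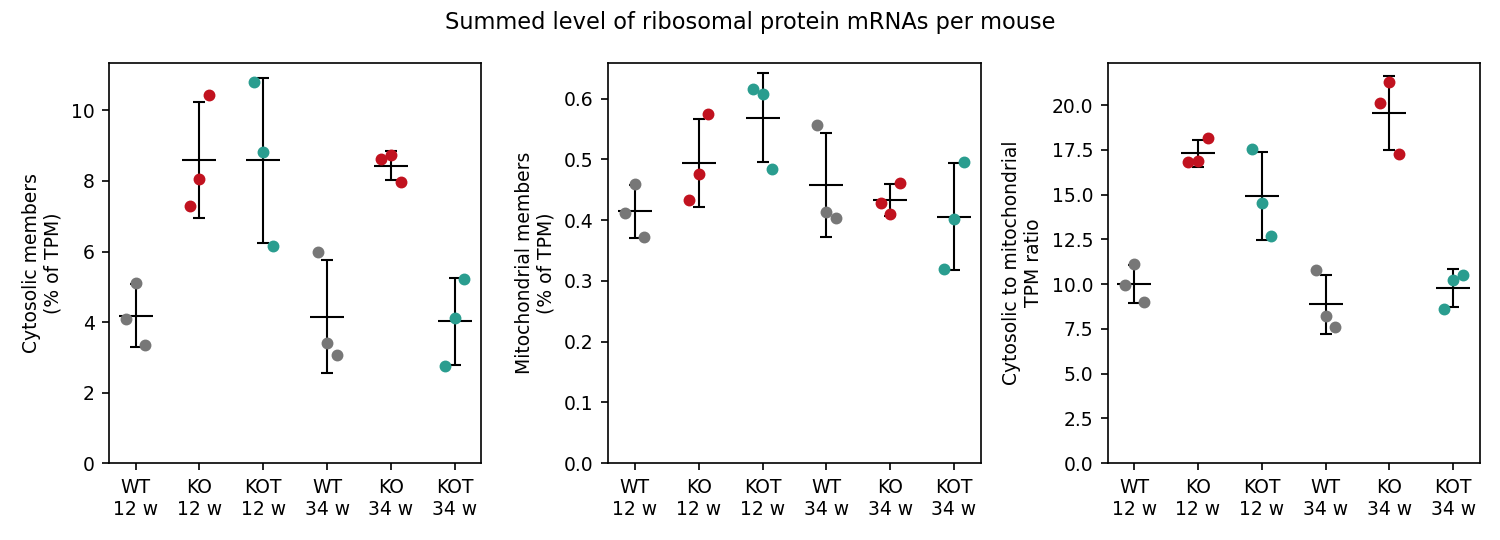
Summed TPM of the 78 cytosolic members (left, percent of all TPM), of the 78 mitochondrial members (middle, percent of all TPM) and their ratio (right), with 1 point per mouse and the mean and SD of each group of 3. The ratio of every Lipa-/- (KO) mouse, 16.8 or more, lies above that of every WT mouse, and treated (KOT) mice at 34 weeks lie between 8.60 and 10.5.

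The comparison of Lipa-/- with WT mice asks how loss of the lipase changes these genes. With edgeR and TMM scaling, 9 of 78 cytosolic members rose (11.5%) and none fell at 12 weeks, where 22.9% of all tested genes were called higher and 16.2% lower. The cytosolic median was 0.50 on the log2 scale, 0.48 above the median of all tested genes, and 73 of 78 members had a positive value. Of the mitochondrial members 12 fell and 0 rose, with a median of -0.38, which is -0.40 relative to all tested genes. At 34 weeks 7 cytosolic members rose and 1, Rps27l, fell, while 50 of 78 mitochondrial members fell (64.1%) and 0 rose, against 23.8% of all tested genes called higher and 23.5% lower. The medians at 34 weeks were 0.21 for cytosolic and -0.88 for mitochondrial members, or 0.24 and -0.85 relative to all tested genes. Over 20 alternatives the relative cytosolic median at 34 weeks ran from -0.01 without WT mouse 3 to 0.92 without WT mouse 1, and the mitochondrial one from -1.03 to -0.48, so the size of the cytosolic median at 34 weeks rested on single WT mice. The share of cytosolic members called higher was below that of all genes at both times, and the share of mitochondrial members called lower was above it at 34 weeks only.

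**Figure D2:**
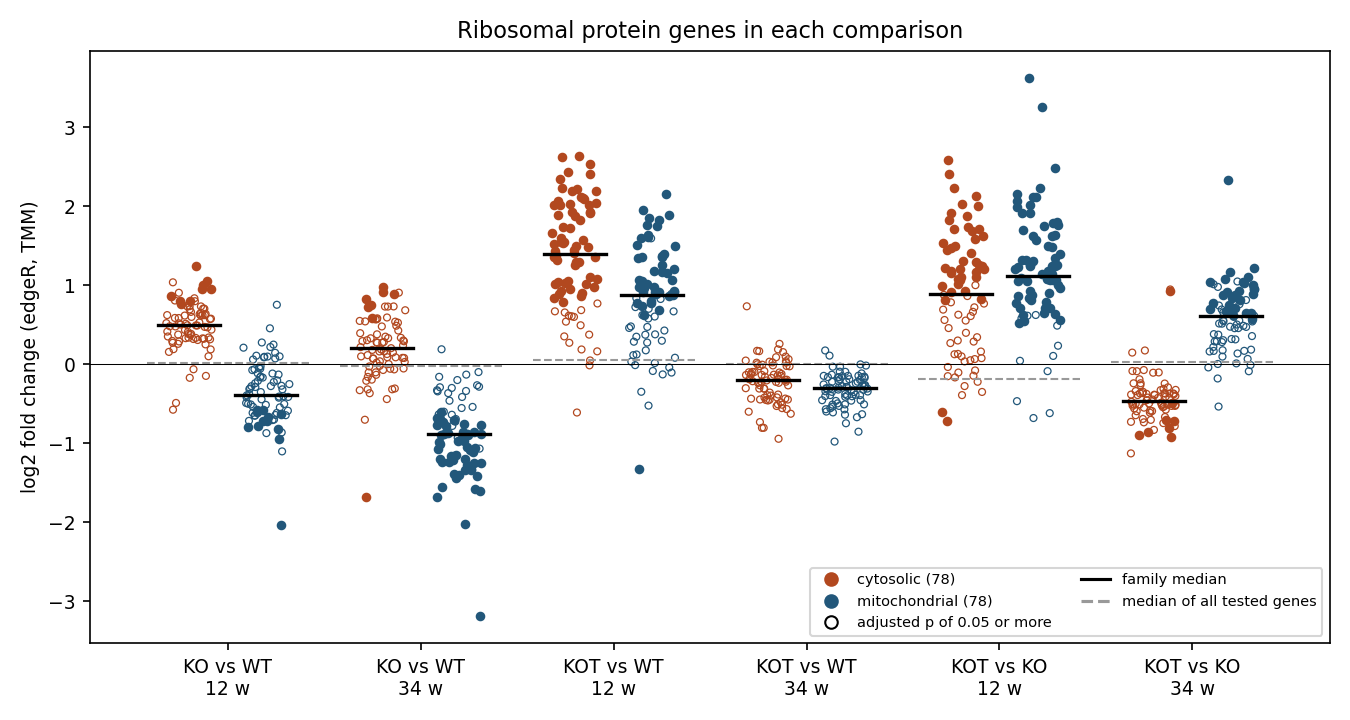
log2 fold change (edgeR, TMM) of every member in the 6 comparisons within a time point, where filled points have an adjusted p below 0.05, solid bars are family medians and dashed lines the median of all tested genes. Cytosolic medians of 0.50 and 0.21 and mitochondrial medians of -0.38 and -0.88 lie apart in KO versus WT, and with total counts as the scale the mitochondrial median at 12 weeks turns to 0.10.

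The direction of the mitochondrial family at 12 weeks depended on the scale. Its median relative to all tested genes at 12 weeks ran from -0.55 to -0.15 over 20 alternatives. Scaling by total counts moved the median of all tested genes by 0.48 at 12 and 0.60 at 34 weeks, and on that scale 54 cytosolic members rose and 0 fell and 7 mitochondrial members rose and 0 fell at 12 weeks, whereas at 34 weeks the counts were 45 higher and 0 lower for cytosolic and 2 higher and 18 lower for mitochondrial members. On that scale 34.1% of all tested genes were called higher and 6.47% lower at 12 weeks, and 40.1% and 10.6% at 34 weeks. On log2(TPM + 1), tested with limma, 56 cytosolic members rose at 12 and 64 at 34 weeks, where 29.9% and 42.1% of all tested genes were called higher. Without WT mouse 1 at 34 weeks, edgeR called 36 cytosolic members higher and 0 lower and 25 mitochondrial members lower at 34 weeks, against 21.4% of all tested genes called higher and 20.3% lower. At 12 weeks the count of cytosolic calls was 4 without WT mouse 1 or without WT mouse 3, and that of mitochondrial calls was 7 without WT mouse 1, 5 without WT mouse 2 and 6 without Lipa-/- mouse 5. At 34 weeks the cytosolic count was 5 without WT mouse 2, 3 without WT mouse 3 and 4 without Lipa-/- mouse 5, and the mitochondrial count was 28 without Lipa-/- mouse 4.

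Of the small-subunit members, Rps28 led the increase. Its CPM (counts scaled to library size with TMM factors, not to gene length) were 117, 176 and 106 in WT mice at 12 weeks and 308, 297 and 344 in Lipa-/- mice. At 34 weeks they were 164, 93.8 and 84.5 in WT and 185, 261 and 230 in Lipa-/- mice. The groups did not overlap at either time, with log2 fold changes of 1.25 ± 0.28 (SE, edgeR adjusted p = 0.00197) and 0.98 ± 0.28 (SE, edgeR adjusted p = 0.00784). Rps28 lies at chr17:34042024-34043536 (GRCm39) and is short, with a mean deposited length of 164 bases. The 34-week value was 1.34 when WT mouse 1 was left out. After the trend with gene length was removed, its difference at 12 weeks was 0.42 and no longer passed the test, and at 34 weeks it was 0.54 and still passed, but it did not pass at 34 weeks (0.35) once the GC trend was removed as well.

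Rps20, a protein of the small-subunit head at chr4:3831334-3835669 (GRCm39), rose at both times as well. Its CPM were 127, 180 and 114 in WT and 299, 261 and 313 in Lipa-/- mice at 12 weeks, and 182, 104 and 86.4 against 202, 272 and 230 at 34 weeks. All Lipa-/- mice again lay above all WT mice, by 1.05 ± 0.28 and 0.92 ± 0.28 on the log2 scale (SE, edgeR adjusted p = 0.00642 and 0.0116). Of the alternatives, leaving out WT mouse 3 at 34 weeks ended the call at that time (0.72), and without WT mouse 1 the value was 1.30. With the length trend removed Rps20 stood at 0.81 and 1.07 and passed at both times.

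Among large-subunit members, Rpl23, which can bind the p53 regulator Mdm2 when free of the ribosome, stood at 277, 206 and 195 CPM in WT and at 383, 472 and 398 CPM in Lipa-/- mice at 34 weeks. This was a log2 fold change of 0.89 ± 0.22 (SE, edgeR adjusted p = 0.00371), without overlap, and 1.06 without WT mouse 1. Rpl31 rose by 0.95 ± 0.33 and Rpl38, known for its part in the translation of Hox mRNAs in the embryo, by 0.95 ± 0.33 at 12 weeks (SE, edgeR adjusted p = 0.0296 and 0.0314). The value of Rpl38 was 0.12 with the length trend removed and -0.19 with the length and GC trends removed. The calls of Rpl31 and Rpl38 were each lost without WT mouse 1 or 3 or Lipa-/- mouse 5 or 9. Rpl30 rose by 0.58 ± 0.18 at 34 weeks (SE, edgeR adjusted p = 0.0156), and by 0.70 without WT mouse 1. Rpl21, Rpl37 and Rps29, named after their values were seen, also rose at both times, though their WT and Lipa-/- mice overlapped at 34 weeks (1.02, 1.16 and 1.23 there with WT mouse 1 left out, all past the test), and Rpl36a passed at 12 weeks with a log2 fold change of 0.80.

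Rps27l, a paralog of Rps27 that p53 induces, was the 1 cytosolic member that fell in Lipa-/- mice, at 34 weeks. It stood at 568, 153 and 168 CPM in WT and at 69.5, 94.8 and 113 CPM in Lipa-/- mice at 34 weeks, so the groups did not overlap, and WT mouse 1 was far above the other WT mice. The log2 fold change was -1.68 ± 0.48 (SE, edgeR adjusted p = 0.00886), and the call was lost without WT mouse 1, with total counts and on the TPM scale. Rps27 itself had a log2 fold change of -0.21 ± 0.60 (SE, edgeR adjusted p = 0.802). With WT mouse 1 left out the values were -0.80 for Rps27l and 1.14 for Rps27, neither past the test. The difference between the paralogs was not tested.

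Mrpl1, a protein of the large mitochondrial subunit at chr5:96357146-96414586 (GRCm39), had the lowest log2 fold change of all 156 members at both times. At 12 weeks it stood at 23.8, 16.6 and 12.2 CPM in WT mice and at 0.745, 2.06 and 10.1 CPM in Lipa-/- mice. At 34 weeks it stood at 31.3, 4.89 and 12.9 CPM in WT mice and at 1.83, 1.89 and 1.62 CPM in Lipa-/- mice. The groups did not overlap, with Mrpl1 4.09-fold lower at 12 weeks (log2 -2.03 ± 0.74, SE, edgeR adjusted p = 0.0387) and 9.11-fold lower at 34 weeks (log2 -3.19 ± 0.79, SE, edgeR adjusted p = 0.0032). The 34-week value was -2.32 and still passed when WT mouse 1 was left out. The 12-week call was lost with total counts, in the fit of only the groups compared, and without WT mouse 1 or 2 or Lipa-/- mouse 5 or 8.

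Among proteins of the small mitochondrial subunit, Mrps31 was low in every Lipa-/- mouse at both times and Mrps22 in every Lipa-/- mouse at 34 weeks. Mrps31 stood at 37.4, 41.5 and 36.2 CPM in WT and at 15.9, 23.5 and 20.3 CPM in Lipa-/- mice at 12 weeks, and at 40.0, 27.1 and 34.8 CPM against 10.7, 10.3 and 17.4 CPM at 34 weeks. It fell by 0.95 ± 0.22 and by 1.41 ± 0.22 on the log2 scale (SE, edgeR adjusted p = 0.00253 and 6.9e-05). Mrps22, which is mutated in some human mitochondrial disorders, stood at 46.9, 18.6 and 20.4 CPM in WT and at 7.19, 8.81 and 12.1 CPM in Lipa-/- mice at 34 weeks. It fell by 1.61 ± 0.35 (SE, edgeR adjusted p = 0.00119). Mrpl53 fell by 2.03 ± 0.53 at 34 weeks (SE, edgeR adjusted p = 0.00483), a call that was lost without WT mouse 1 (-1.16). Without that mouse Mrps22 and Mrps31 stood at -1.06 and -1.27 at 34 weeks and passed. Mrps18b, 1 of 3 Mrps18 paralogs, and Mrpl9 fell at 12 weeks, by 0.81 ± 0.19 and 0.79 ± 0.23 (SE, edgeR adjusted p = 0.0033 and 0.0109). Over 20 alternatives these calls were lost in 3 and 5, with values up to -0.30 and -0.31.

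**Figure D3:**
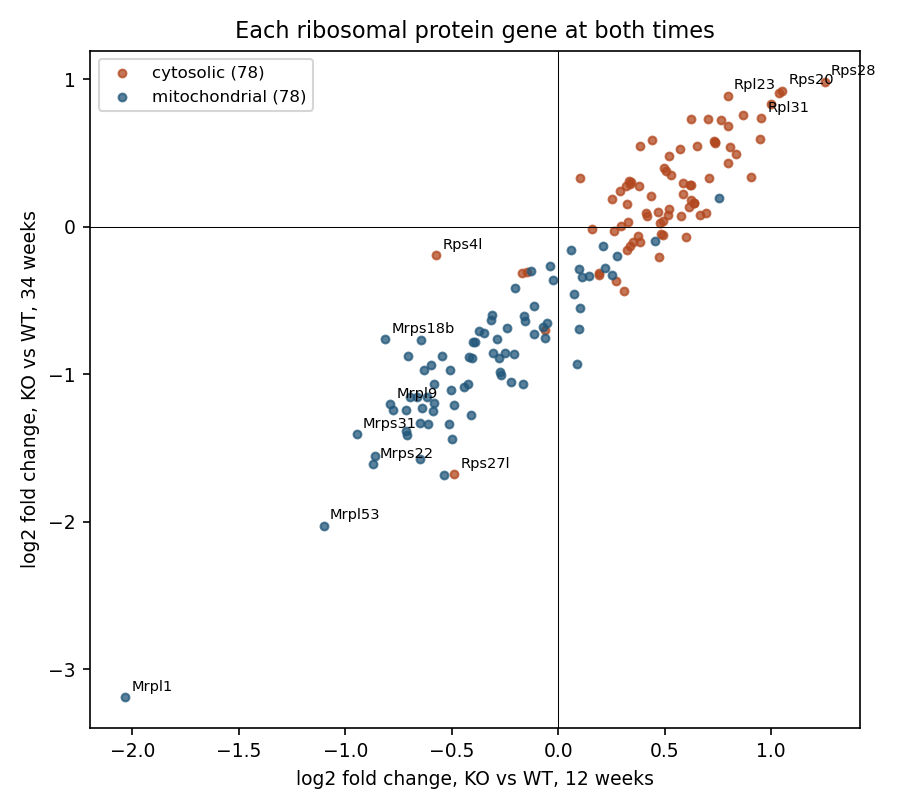
log2 fold change of each member in KO versus WT mice at 12 weeks (x axis) and 34 weeks (y axis), with 78 cytosolic and 78 mitochondrial points. Members such as Rps28 (1.25 and 0.98) and Mrpl1 (-2.03 and -3.19) keep their place at both times, and Rps27l lies at -0.49 and -1.68.

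The order of the members was alike at both times, which share no mice. Over the 78 cytosolic members Spearman's rho between the log2 fold changes was 0.75 and 63 had the same sign, and over the 78 mitochondrial members rho was 0.85 and 65 had the same sign. Without WT mouse 1 at 34 weeks rho was 0.86 and 0.92, with 74 and 71 of the same sign. These are correlations across genes, which are not independent replicates and which share library depth and the scaling within each time. The interaction with time, which tests whether the difference from WT mice changed between 12 and 34 weeks, called 0 members of either family with edgeR, against 0.0206% of all tested genes called higher and 0.0413% lower. At an unadjusted p below 0.05 there were 0 cytosolic members and 1 mitochondrial member, and DESeq2 called 0 and 0. Between 34 and 12 weeks in Lipa-/- mice alone edgeR called 0 members (0.0344% of all tested genes higher and 0.488% lower), with 0 cytosolic and 31 mitochondrial members at an unadjusted p below 0.05, and DESeq2 called 0 and 1. In WT mice edgeR called 0 members between the times (0.227% of all tested genes higher and 0.103% lower), with 1 cytosolic and 0 mitochondrial members at an unadjusted p below 0.05, and DESeq2 called 0 and 0.

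Factors of mitochondrial translation were also lower in Lipa-/- mice, beyond the 16.2% and 23.5% of all tested genes called lower. Of 30 mitochondrial translation factors and tRNA synthetases 15 fell at 12 and 22 at 34 weeks, and 0 rose, with medians of -0.59 and -0.81. Nars2, the mitochondrial asparaginyl-tRNA synthetase, fell by 1.74 and 2.17 on the log2 scale (edgeR adjusted p = 0.000622 and 7.29e-05), and Gfm1, a mitochondrial elongation factor, by 1.29 and 1.75 (edgeR adjusted p = 0.000386 and 1.77e-05). Of 29 genes of mitochondrial ribosome assembly 9 fell at 12 and 16 at 34 weeks, and 0 rose. These 34-week counts were 20 and 13 without WT mouse 1. Of 13 mRNAs of the mitochondrial genome 2 fell at 12 and 3 at 34 weeks (2 without WT mouse 1), a share near that of all tested genes. Lists of genes around the cytosolic ribosome held few increases, where 22.9% of all tested genes were called higher at 12 and 23.8% at 34 weeks. Of 42 ribosome biogenesis genes 0 rose and 4 fell at 12 weeks, and 6 rose and 7 fell at 34 weeks. Of 34 initiation factors 0 rose and 6 fell at 12 weeks and 1, the poly(A)-binding protein gene Pabpc1, rose and 7 fell at 34 weeks. Of 8 elongation factor genes 0 were called at either time with edgeR, with 0 and 2 at an unadjusted p below 0.05. Without WT mouse 1 the 34-week counts were 5 higher and 3 lower for biogenesis, 1 and 4 for initiation and 1 and 0 for elongation. In that fit 21.4% of all tested genes were called higher and 20.3% lower.

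Many markers of other cells differed between Lipa-/- and WT mice too. Of all tested genes 22.9% were called higher and 16.2% lower at 12 weeks, and 23.8% and 23.5% at 34 weeks. The summed level of 10 macrophage and Kupffer cell markers was 67.9 to 269 TPM in WT and 1425 to 3212 TPM in Lipa-/- mice, with all 10 detected. By edgeR 7 of these markers rose and 1 fell at 12 weeks, and 5 rose and 2 fell at 34 weeks. The summed level of 8 neutrophil markers was 2.38 to 14.3 TPM in WT and 465 to 5914 TPM in Lipa-/- mice. Of the neutrophil markers 4 were at 0 in all WT mice at 12 and 2 at 34 weeks. Of 10 proliferation genes 10 rose at 12 and 8 at 34 weeks. Of 8 hepatocyte markers 4 fell at 12 and 6 at 34 weeks by edgeR, while their summed level was 40642 to 51627 TPM in WT and 26948 to 55180 TPM in Lipa-/- mice. Other lists were mixed or rose. Of 7 sinusoidal endothelial markers 2 rose and 3 fell at each time. Of 7 erythroid markers 0 rose and 1 fell at 12 weeks, and 1 rose and 1 fell at 34 weeks. For 6 B and plasma cell markers these counts were 3 and 0, then 1 and 1. For 8 stellate cell markers they were 5 and 1, then 6 and 2. Of 6 cholangiocyte markers 3 and 6 rose, of 7 T and NK cell markers 5 and 4, and 0 fell. The part of these cells in the levels of the ribosomal protein genes was not tested.

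Treated Lipa-/- mice are compared with WT mice to ask how far the vector brings expression back. At 34 weeks edgeR called 0 cytosolic and 0 mitochondrial members, against 0.131% of all tested genes called higher and 0.0894% lower. At an unadjusted p below 0.05 there were 1 cytosolic and 0 mitochondrial members, and DESeq2 called 0 and 0. The family medians were -0.20 and -0.30 on the log2 scale. Relative to all tested genes they turned sign with the mouse left out, from -0.47 and -0.49 without WT mouse 3 to 0.40 and 0.06 without WT mouse 1, so no direction is read from them. Against untreated Lipa-/- mice at 34 weeks, where 19.6% of all tested genes were higher and 21.4% lower, 7 cytosolic members fell and 1 rose, and 28 mitochondrial members rose and 0 fell. The medians were -0.46 and 0.61. With total counts 54 cytosolic members fell and 0 rose, and 3 mitochondrial members rose and 3 fell, with a mitochondrial median of 0.07 at a median of all tested genes of -0.51 and with 9.21% of all tested genes called higher and 34.6% lower. Markers of other cells differed here too. Of 8 hepatocyte markers 6 rose and 0 fell in treated against untreated mice at 34 weeks, of 6 cholangiocyte markers 6 fell, of 8 stellate cell markers 6 fell and 2 rose, of 10 macrophage markers 5 fell and 1 rose, and of 10 proliferation genes 6 fell. Their part in the ribosomal protein levels was not tested.

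Among the members that differed between treated and untreated Lipa-/- mice at 34 weeks, Rps28 stood at 81.7, 132 and 144 CPM in treated mice, below each of the 185, 261 and 230 CPM of untreated mice. Rps28 fell by 0.92 ± 0.28 (log2, SE, edgeR adjusted p = 0.0138), and its value of -0.32 with the length trend removed did not pass. Rps20, Rpl36a and Rpl23 fell by 0.90 ± 0.28, 0.81 ± 0.28 and 0.72 ± 0.22 (SE, edgeR adjusted p = 0.0156, 0.0302 and 0.0166). Mrps31 stood at 28.5, 30.5 and 30.4 CPM in treated mice against 10.7, 10.3 and 17.4 CPM, and rose by 1.22 ± 0.22 (SE, edgeR adjusted p = 0.000319). Mrps27, Mrpl15 and Mrpl1 rose by 1.08 ± 0.25, 1.16 ± 0.34 and 2.34 ± 0.77 (SE, edgeR adjusted p = 0.00234, 0.0109 and 0.0224). Rps4l, the autosomal relative of the X-linked Rps4x, was the 1 cytosolic member that rose, by 0.93 ± 0.33 (SE, edgeR adjusted p = 0.031), and its level was 26.6 TPM on average. Over 20 alternatives the call of Rps4l was lost in 7, with values down to 0.39, those of Mrpl15 and Mrpl1 in 5 each, with values down to 0.53 and 1.22, and those of Rps28 and Rpl36a in 4 each. The count of cytosolic calls dropped to 0 when Lipa-/- mouse 5 was left out and to 2 when treated mouse 9 was left out. That of mitochondrial calls was 16 or 12 with treated mouse 11 or 12 left out, and 12 or 15 with Lipa-/- mouse 4 or 5 left out.

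With TMM scaling, 61 of 78 cytosolic members rose (78.2%) and 0 fell in treated against WT mice at 12 weeks, and 44 of 78 mitochondrial members rose (56.4%) and 1, Mrps2, fell, where 19.4% of all tested genes were called higher and 17.5% lower. The medians were 1.40 and 0.87 on the log2 scale, against 0.06 for all tested genes. Against untreated Lipa-/- mice 40 cytosolic members rose and 2, Rpl4 and Rpl23, fell, and 67 mitochondrial members rose and 0 fell, where 23.8% of all tested genes were called higher and 30.4% lower. These last medians were 0.90 and 1.12, against -0.19 for all tested genes. With the length trend removed, 39 cytosolic members were higher and 4 lower and 25 mitochondrial members higher and 8 lower against WT, where 17.9% of all tested genes were called higher and 17.6% lower. Against untreated mice these counts were 35 and 14 and 58 and 2, where 33.5% and 24.1% of all tested genes were called. With total counts the counts against untreated mice were 3 cytosolic members higher and 22 lower and 20 mitochondrial members higher and 7 lower, at a median of all tested genes of -1.05, and against WT mice 22 mitochondrial members rose and 4 fell at a median of -0.33. On that scale 7.64% of all tested genes were called higher and 56.7% lower against untreated mice, and 9.58% and 28.6% against WT. Of the marker lists, 5 of 10 macrophage, 4 of 7 T and NK cell and 4 of 6 B and plasma cell markers rose and 0 fell against WT at 12 weeks. Against untreated mice 6 of 8 neutrophil markers and 7 of 10 proliferation genes fell and 0 rose, while 5 of 10 macrophage markers fell and 2 rose. Summed macrophage markers were 236 to 272 TPM in these treated mice. Their part in the ribosomal protein levels was not tested.

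Members of 1 ribosome rose unequally in the treated mice at 12 weeks. Rpl13a stood at 765, 1040 and 440 CPM in WT, at 859, 1014 and 1332 CPM in Lipa-/- and at 8068, 3193 and 2716 CPM in treated mice. The treated mice were above all others, with mouse 10 far above mice 11 and 12, and the log2 fold change against WT was 2.64 ± 0.61 (SE, edgeR adjusted p = 0.00677). Rpl17, Rps14, which is haploinsufficient in the 5q- syndrome, and Rps24, a gene of Diamond-Blackfan anaemia, rose by 2.62 ± 0.62, 2.54 ± 0.65 and 2.43 ± 0.57 (SE, edgeR adjusted p = 0.00695, 0.00935 and 0.00684). Against untreated Lipa-/- mice Rpl9 rose by 2.41 ± 0.63 and Rps27l by 2.58 ± 0.50 (SE, edgeR adjusted p = 0.0044 and 0.000508).

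Rpl4, a large-subunit protein that reaches into the exit tunnel, went the other way. It stood at 376, 461 and 413 CPM in WT, at 390, 476 and 476 CPM in Lipa-/- and at 153, 327 and 339 CPM in treated mice at 12 weeks. The treated mice lay below both groups. Rpl4 fell by 0.71 ± 0.24 against untreated Lipa-/- mice (log2, SE, edgeR adjusted p = 0.0215), and against WT its value of -0.61 ± 0.24 did not pass (SE, edgeR adjusted p = 0.059). Over 20 alternatives the call of Rpl4 against untreated mice was lost in 3, with values up to -0.46. That of Rpl23 in the same comparison was lost in 5, with values up to -0.49. Rps4x had a log2 fold change against WT of 0.16 ± 0.24 (SE, edgeR adjusted p = 0.607). Over the 78 cytosolic members the log2 fold change against WT ranged with mean TPM at a Spearman's rho of 0.52, with length at -0.33 and with GC content at 0.11, across genes that share the same 6 libraries.

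Of the mitochondrial members, Mrpl53 and Mrpl14 had the largest called increases without overlap against WT, by 2.16 ± 0.53 and 1.95 ± 0.46 (SE, edgeR adjusted p = 0.00836 and 0.00734). Mrps24 and Mrps16 of the small subunit rose by 1.40 ± 0.39 and 1.37 ± 0.45 (SE, edgeR adjusted p = 0.0128 and 0.0257), and the call of Mrps16 was lost in 7 of 20 alternatives, with values down to 0.85. Mrps2 stood at 29.4, 28.9 and 33.3 CPM in WT, at 22.2, 19.9 and 16.5 CPM in Lipa-/- and at 4.76, 13.9 and 17.7 CPM in treated mice. It was 2.50-fold lower in treated than in WT mice, without overlap (edgeR adjusted p = 0.00688). Mrpl1, low in untreated mice, stood at 84.9, 31.9 and 42.5 CPM in treated mice at 12 weeks, above all 6 mice of the other groups.

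**Figure D4:**
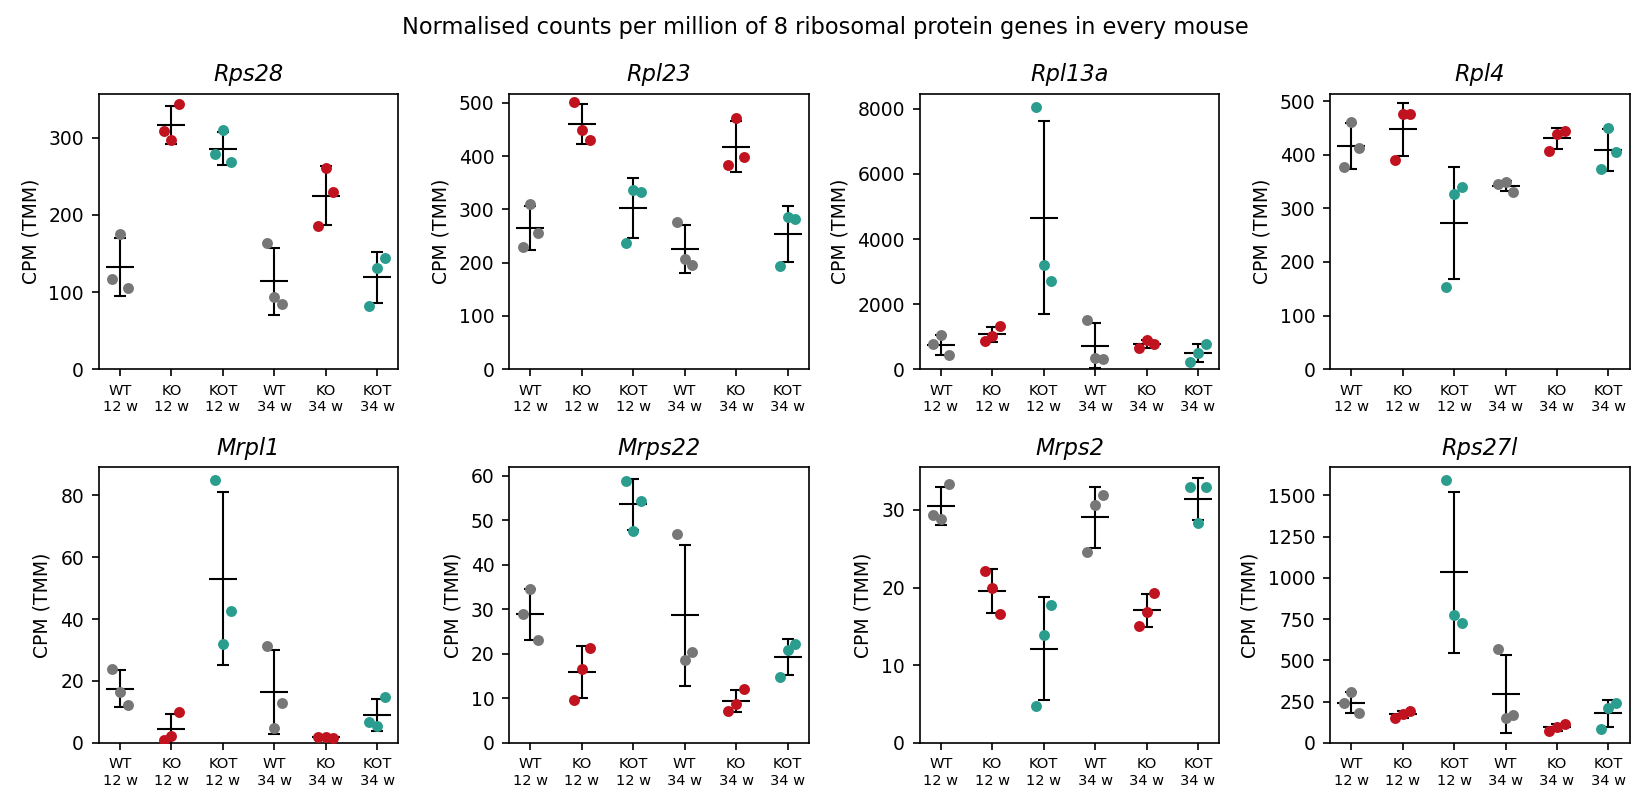
TMM-scaled CPM of 8 members in every mouse, with 1 point per mouse and the mean and SD of each group of 3. Rps28 is high and Mrpl1 low in KO mice at both times, Rpl23 is high and Mrps22 low at 34 weeks, and Mrps2 is low at 12 weeks. In KOT mice at 12 weeks Rpl13a reaches 2716 to 8068 CPM and Rpl4 lies at 153 to 339 CPM.

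The number of calls in this 12-week difference depended on which mice were kept. Without treated mouse 10, 19 cytosolic and 5 mitochondrial members passed the test against WT, and without WT mouse 3 the counts were 16 and 8. Against untreated Lipa-/- mice 5 cytosolic members passed without treated mouse 10, 22 without Lipa-/- mouse 8 and 19 without Lipa-/- mouse 5. The share of all tested genes called in these fits is not given. A general loss of calls with fewer mice can therefore not be told apart from one particular to the members. In treated mice 70 cytosolic members fell and 0 rose and 59 mitochondrial members fell and 1 rose from 12 to 34 weeks, where 23.9% of all tested genes were called higher and 21.3% lower. The test of whether the difference from WT changed with time called 42 cytosolic members lower and 0 higher and 40 mitochondrial members lower and 1 higher, against 9.07% of all tested genes called higher and 10.5% lower. These interaction counts were 0 and 0 when WT mouse 1 or 3 at 12 weeks, WT mouse 1 at 34 weeks or treated mouse 9 was left out, 0 and 1 when treated mouse 10 was, and 17 and 15 when treated mouse 11 at 34 weeks was.

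Gene length moved with the same difference. The deposited lengths are effective lengths, with a median over members of 447 bases for cytosolic and 831 bases for mitochondrial ones, and 75 cytosolic and 60 mitochondrial members belonged to the shortest of 4 length classes, up to 1147 bases. In treated versus WT mice at 12 weeks the other genes of that class had a median log2 fold change of 0.79 and the genes of the longest class -0.38. The members of the shortest class stood at 1.41 (cytosolic) and 0.92 (mitochondrial). In Lipa-/- versus WT mice at 12 weeks the other genes of that class stood at 0.05 and the members at 0.51 and -0.28, and at 34 weeks at -0.33 and 0.20 and -0.86. Treated versus WT mice at 34 weeks gave -0.18 for other short genes, -0.20 for cytosolic and -0.33 for mitochondrial members.

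**Figure D5:**
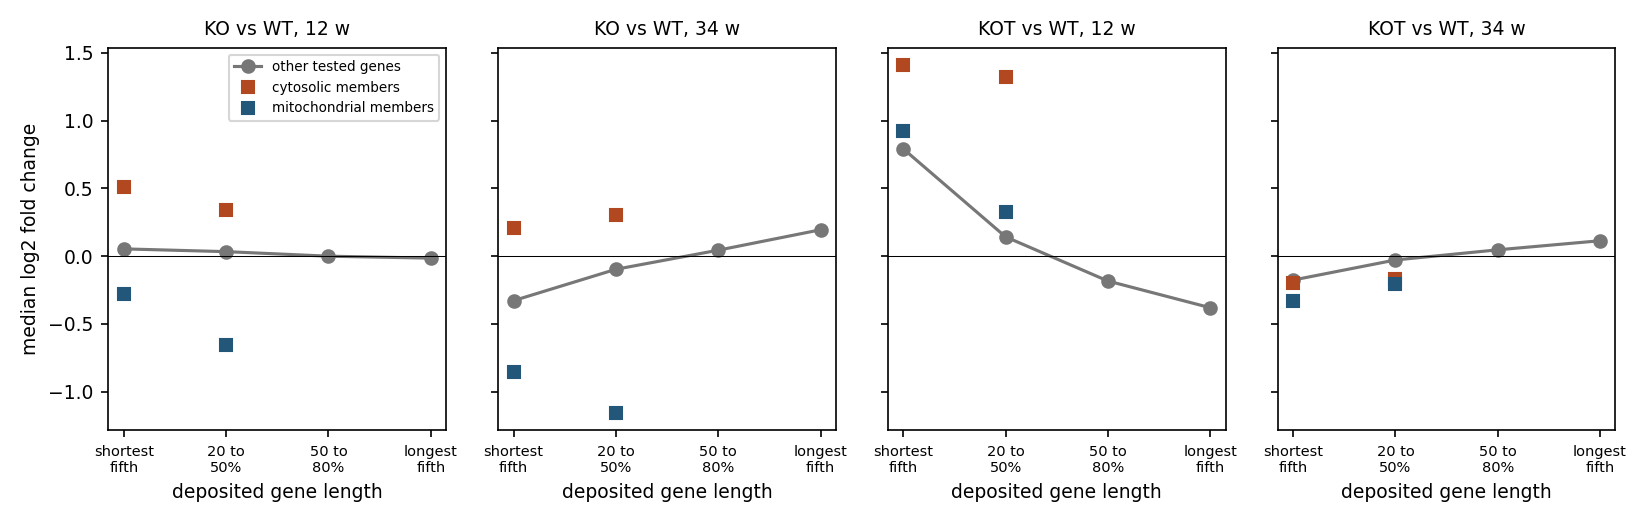
Median log2 fold change (edgeR, TMM) of other tested genes (line) and of cytosolic and mitochondrial members (squares, classes with 3 or more members) in 4 classes of deposited gene length, for KO and KOT versus WT at both times. In KOT versus WT at 12 weeks the line falls from 0.79 to -0.38, and in KO versus WT the families lie on either side of it.

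With the trend of each mouse with gene length removed, the treated mice at 12 weeks had medians of 0.58 and 0.25 against WT. In Lipa-/- versus WT mice the removal left 53 mitochondrial members lower and 0 higher at 12 weeks and 23 cytosolic members higher and 1 lower at 34 weeks, where 32.0% of all tested genes were called lower at 12 and 21.5% higher at 34 weeks, with medians relative to all tested genes of 0.38 and -0.38 at 12 and 0.56 and -0.53 at 34 weeks. The family medians thus kept their direction with and without the length trend, on the scale relative to all tested genes. In the groups' mean deposited lengths the cytosolic members differed by a median of -0.03 on the log2 scale between Lipa-/- and WT mice at 12 weeks and -0.05 at 34 weeks.

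The pattern across members seen in treated mice at 12 weeks also appeared between mice of 1 group. For every pair of mice of the same group that the comparison does not use, 12 pairs in all, the differences of the members were set against the log2 fold changes of treated versus WT mice at 12 weeks. The size of Spearman's rho lay between 0.0056 and 0.94 for cytosolic members (median 0.41, above 0.5 in 5 pairs) and between 0.0039 and 0.89 for mitochondrial ones (median 0.57, above 0.5 in 7 pairs). Within WT mice at 34 weeks, mouse 1 against mouse 2 gave 0.93 and 0.89, and the median difference of the members was 1.32 and 1.02 on the log2 scale. Set against Lipa-/- versus WT mice at 12 weeks in the same way, the highest values were 0.44 for cytosolic and 0.46 for mitochondrial members, with medians of 0.19 and 0.15. Against Lipa-/- versus WT mice at 34 weeks the median was 0.49 for cytosolic members, above 0.5 in 5 of 12 pairs and at most 0.66, and 0.23 for mitochondrial members, above 0.5 in 1 pair. Against treated versus WT mice at 34 weeks the medians were 0.44 and 0.49, above 0.5 in 5 and 6 pairs. These are descriptions across 78 genes each that share libraries and scaling.

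The mRNAs of the mitochondrial genome were low in the treated mice at 12 weeks too. Their share of TPM was 2.28, 4.99 and 5.81% there against 11.6, 8.97 and 15.2% in WT mice. Of 13 such mRNAs 6 fell and 1 rose, where 19.4% of all tested genes were called higher and 17.5% lower. The share also varied within other groups, from 8.39 to 17.1% in WT mice at 34 weeks and from 5.93 to 12.4% in Lipa-/- mice at 12 weeks. The treated group did not overlap with WT, and the lowest value belonged to treated mouse 10, in which Rpl13a was highest. The part of RNA quality in these values was not tested.

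Reads of many members can be shared with near-identical copies. Pseudogene rows carrying a member's symbol and "-ps" existed for 63 of 78 cytosolic members, with 307 rows that held 4.73% of the summed reads, and for 4 mitochondrial members. The share was above 10% for 9 cytosolic members, among them Rpl10 with 66.1% and the members named above Rpl31 with 31.2% and Rpl36a with 22.5%. It reached 89.2% for Mrpl23, and the levels of all these members are uncertain. Of the paralogs named by the rule, Rpl3l, Rpl10l and Rpl39l held at most 25 reads in all, Rpl22l1 rose in Lipa-/- mice at 34 weeks by 1.33 ± 0.38 (SE, edgeR adjusted p = 0.00864) and Rpl22 had a value of 0.03 ± 0.32 (SE, edgeR adjusted p = 0.951). Rpl7l1 fell by 0.84 ± 0.29 (SE, edgeR adjusted p = 0.0227), with Rpl7 at -0.02 ± 0.31 (SE, edgeR adjusted p = 0.968). Mrps18a, Mrps18b and Mrps18c fell at 34 weeks by 0.88 ± 0.28, 0.76 ± 0.19 and 0.99 ± 0.33 (SE, edgeR adjusted p = 0.016, 0.00401 and 0.02). When WT mouse 1 was left out, Rpl22l1 (1.89) and Mrps18b (-0.66) still passed, while Rpl7l1 (-0.53), Mrps18a (-0.53) and Mrps18c (-0.39) did not. Deposited lengths differed most between Lipa-/- and WT mice at 12 weeks for Mrps35, at 649 against 1001 bases, and Mrps23, at 648 against 437 bases.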

How the data were processed

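Frozen liver from 18 mice, 3 per group, was sequenced from poly(A)-selected RNA (paired-end). The authors aligned reads to the GRCm39 transcriptome with Salmon and summarised them to genes with tximport; the deposited estimated counts per gene carry no scaling for depth or length, and the deposited TPM values are scaled within each mouse for both. The authors' deposited gene lengths, a signal in bases per gene and mouse, vary between mice and are read as effective lengths. A deposited table of DESeq2 comparisons was not used. The authors used R 4.3.0 and DESeq2 1.40.1, per the labels.

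Counts were rounded and 14535 genes with more than 100 reads over 18 mice were tested in R 4.3.3 with edgeR 4.0.16 (quasi-likelihood F test, two-sided, TMM, 6 group means in 1 fit, Benjamini-Hochberg over all tested genes, adjusted p below 0.05), giving 11 comparisons. With 3 mice per group, p values rest on this model and on the spread between these mice. CPM values are TMM-scaled with no prior. Alternatives used DESeq2 1.42.0, limma 3.58.1 on log2(TPM + 1) or log2(TPM + 0.1), other scaling and filters, length offsets, and each mouse left out. Removal of the length and GC trends together, and the fit without WT mouse 1 at 34 weeks for related lists, paralogs and all members, were added after seeing the data. Scripts were tested on simulated data. Genes were named by a rule: the highest mean TPM per subunit; per subunit, direction and comparison within a time point, the 2 largest called changes with a mean of at least 1 TPM and no overlap between mice; fixed paralog pairs; members next to the read minimum; and the 2 members whose length differed most. The members and lists were chosen with earlier results of these data known.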

Additional observations from a re-analysis of the deposited data

Results flagged for a closer look

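With all mice kept, the difference of treated Lipa-/- from WT mice changed between 12 and 34 weeks for many members, by edgeR's test of the interaction (adjusted p below 0.05). It was lower at 34 weeks for 42 cytosolic and 40 mitochondrial members and higher for 1 mitochondrial member. Of all tested genes 9.07% were called higher and 10.5% lower. Of the members named against WT, the interaction was -3.15 on the log2 scale for Rpl13a, -3.19 for Rpl17, -3.34 for Rps14 and -2.96 for Rps24, and -2.62 for Mrpl14, -3.14 for Mrpl53, -1.98 for Mrps16, -1.93 for Mrps24 and 1.43 for Mrps2. Without WT mouse 1 at 34 weeks 0 members of either family passed. The same held without WT mouse 1 or 3 at 12 weeks, without treated mouse 9, and in a fit of only the groups compared.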

How the results depend on the processing

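Counts below are members past the threshold in either direction. With the length trend removed, Lipa-/- versus WT gave 53 mitochondrial members at 12 and 24 cytosolic at 34 weeks, treated versus untreated mice at 34 weeks 14 cytosolic and 49 mitochondrial, and the interaction of treated versus WT with time 22 and 25. With the GC trend removed too, an alternative added after seeing the data, these were 53, 22, 16 and 48, and 24 and 19, treated versus WT at 12 weeks gave 29 mitochondrial members, and Rpl38 in Lipa-/- versus WT at 12 weeks turned to -0.19. With only the length trend removed, 29.4% of all tested genes were higher and 19.8% lower in treated versus untreated mice at 34 weeks. In the interaction 8.21% were higher and 9.64% lower. Upper quartile factors gave 15 and 18 cytosolic members in Lipa-/- versus WT at 12 and 34 weeks. With these factors 24.2% and 27.6% of all tested genes were higher and 14.7% and 18.7% lower. Total counts gave 54 cytosolic and 7 mitochondrial at 12 and 45 and 20 at 34 weeks in that comparison, 26 mitochondrial in treated versus WT at 12 weeks, 25 and 27 in treated versus untreated at 12 and 54 and 6 at 34 weeks, and 17 mitochondrial in the interaction. A fit of only the groups compared gave 17 and 5 cytosolic in Lipa-/- versus WT, and 0 and 0 in the interaction. With limma on log2(TPM + 1), Lipa-/- versus WT gave 56 cytosolic at 12 weeks and 64 and 17 at 34 weeks, treated versus WT at 12 weeks 23 mitochondrial, treated versus untreated 27 and 28 at 12 and 69 and 10 at 34 weeks, treated mice over time 46 and 38, and the interaction 6 and 7. On log2(TPM + 0.1) these were 56, 64 and 14, 25, 27 and 28, 68 and 10, 38 mitochondrial over time, and 11 and 10. On log2(TPM + 1), 5.17% of all tested genes were higher and 55.6% lower in treated versus untreated mice at 12 weeks. At 34 weeks these shares were 8.5% and 36.7%, over time in treated mice 45.5% and 4.51%, and in the interaction 9.96% and 1.44%. In treated versus WT mice at 12 weeks they were 4.24% and 23.9%. DESeq2 gave 16 and 13 cytosolic members in Lipa-/- versus WT, and with deposited lengths 16 and 15, and 13 cytosolic in treated versus untreated mice at 34 weeks. Both gave 1 mitochondrial member in Lipa-/- mice over time. The cause of these shifts was not tested.

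With 1 mouse left out at a time, the share of all tested genes called is given only for the fit without WT mouse 1 at 34 weeks. Lipa-/- versus WT then gave 4 to 13 cytosolic and 5 to 14 mitochondrial members at 12 weeks and 3 to 36 and 25 to 57 at 34 weeks. Treated versus WT gave 16 to 66 and 5 to 48 at 12 weeks and 0 of either family at 34 weeks. Treated versus untreated gave 5 to 42 and 58 to 65 at 12 and 0 to 9 and 12 to 34 at 34 weeks. Over time, WT mice gave 0, Lipa-/- mice 0 cytosolic and 0 to 2 mitochondrial, and treated mice 58 to 70 and 50 to 62. The interaction gave 0 for Lipa-/- mice and 0 to 55 and 0 to 50 for treated mice. Of 900 recomputed values of named members, 798 kept their direction and side of the threshold, 101 kept the direction but lost the threshold and 1 reversed.

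WT mice share the numbers 1 to 3 between the times, but livers were taken when mice were killed, so no mouse was sampled at both. Same-numbered mice had correlations of their deviations from the group mean of 0.0761, -0.240 and 0.460, and not every mouse correlated best with its own number. With 3 mice per group centred on their mean, these correlations cannot decide whether the numbers pair the samples in some other way. With the mouse number as a replicate block among WT mice alone, 0 cytosolic and 0 mitochondrial members passed between the times.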
